A study of Mus musculus with 40 samples.

Results

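The genes described here are the mouse receptors for the ovarian hormones oestrogen (Esr1) and progesterone (Pgr) and the progesterone-responsive genes around RANKL, namely Tnfsf11, Tnfrsf11a, Wnt4, Calca and Id2. These 7 genes were listed by name, and all 7 were found by symbol among the 22552 genes of the deposited expression table. Whole mammary glands of outbred mice gave 31 libraries of poly(A) RNA, which fall into 12 groups. Each group has 1 pooled value per gene in FPKM, the fragments counted per length of transcript and per sequencing depth, so no value has an SD and no difference has a test.

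The control groups carried the MMTV-Cre transgene alone. Ezh2 KO mice carried floxed Ezh2 alleles together with the transgene line A, which the labels describe as a mammary-specific deletion. Ezh1 KO mice were E1-/-, and the Ezh1 het Ezh2 KO mice had 1 intact Ezh1 allele with floxed Ezh2 and the transgene. All 4 genotypes were sampled on days 13 (p13) and 18 (p18) of pregnancy, with 3 libraries per group except 2 for p18 Ezh1 KO. Control and Ezh2 KO virgin females of 12 weeks gave 2 libraries per group, without prolactin and 2 h after an injection of 5 µg per g body weight. By the labels' protocol these virgins were at estrus, the left gland was removed under anaesthesia, and the right gland was collected after recovery and injection, so time and surgery accompany the hormone. The labels do not say how many mice gave each RNA library.

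Within the mammary epithelium, oestrogen and progesterone act on a minority of luminal cells, the hormone-sensing cells, which contain both receptors. Progesterone induces secreted factors in these cells, above all RANKL, encoded by Tnfsf11, and WNT4, which act on neighbouring epithelial cells that do not have the receptors. RANK, encoded by Tnfrsf11a, receives RANKL and activates NF-kappaB, and the helix-loop-helix protein ID2 is needed downstream for alveoli to form. Calca encodes calcitonin and, by alternative splicing, a neuropeptide. In the gland its transcript is induced by progesterone in luminal cells during pregnancy.

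The values of the whole table set limits on these comparisons. Read depth is unknown, and FPKM summed over all genes lay between 581531 and 1151971 in the groups. The sum of the milk protein genes ran from 519 FPKM in untreated virgin control to 478398 in p18 Ezh1 het Ezh2 KO. FPKM is per sequencing depth, and the part of milk transcripts in the differences of other genes was not tested. Ezh2 itself, read over the whole gene in whole tissue, was 5.55 FPKM in virgin Ezh2 KO and 4.98 in virgin control without prolactin. With prolactin it was 4.64 and 6.74, at p13 13.7 and 12.9, and at p18 6.41 and 10.0. Ezh2 was thus not lower in every Ezh2 KO group, so the Ezh2 KO label was not checked by it. Ezh1 was 1.06 FPKM in Ezh1 KO and 14.7 in control at p13, and 0.627 and 7.37 at p18. Luminal epithelium markers were present in every group, and the sum of 12 such markers ran from 903 FPKM in untreated virgin Ezh2 KO to 2571 in p13 Ezh2 KO. The sum of 12 skeletal muscle markers was 10714 FPKM in the p13 control and at most 2636 in any other group. The sum of 14 lymphocyte markers ran from 11.2 to 313 FPKM, with both extremes among the virgin groups. In whole tissue, fewer cells of a type and less RNA per cell cannot be told apart.

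The promoters of the 4 members that differed most between untreated virgin Ezh2 KO and control glands are shown with 1 of the 2 Esr1 promoters, the member promoter that holds a match to the STAT5 site. Each sequence is the 250 bases before the start of the gene in RefSeq on build GRCm38.p6, which is not the mm9 build of the expression files, written 5′ to 3′ on the strand of the gene. Capitals mark the STAT5 match.
Calca, chr7:114636358-114636607, minus strand: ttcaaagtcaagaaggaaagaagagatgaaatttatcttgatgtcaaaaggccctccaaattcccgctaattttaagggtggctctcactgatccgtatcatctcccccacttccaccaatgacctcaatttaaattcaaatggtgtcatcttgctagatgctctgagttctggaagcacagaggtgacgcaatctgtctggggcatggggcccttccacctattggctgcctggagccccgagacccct
Tnfsf11, chr14:78308044-78308293, minus strand: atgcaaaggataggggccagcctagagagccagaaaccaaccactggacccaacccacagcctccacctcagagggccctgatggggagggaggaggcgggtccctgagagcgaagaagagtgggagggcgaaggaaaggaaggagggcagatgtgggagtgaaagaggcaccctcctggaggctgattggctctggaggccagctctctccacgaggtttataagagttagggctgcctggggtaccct
Pgr, chr9:8899583-8899832, plus strand: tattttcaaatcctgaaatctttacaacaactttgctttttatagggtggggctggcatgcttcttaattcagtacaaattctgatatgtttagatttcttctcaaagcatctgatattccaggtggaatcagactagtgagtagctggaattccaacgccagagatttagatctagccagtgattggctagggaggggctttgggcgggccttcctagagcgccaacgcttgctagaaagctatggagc
Wnt4, chr4:137277385-137277634, plus strand: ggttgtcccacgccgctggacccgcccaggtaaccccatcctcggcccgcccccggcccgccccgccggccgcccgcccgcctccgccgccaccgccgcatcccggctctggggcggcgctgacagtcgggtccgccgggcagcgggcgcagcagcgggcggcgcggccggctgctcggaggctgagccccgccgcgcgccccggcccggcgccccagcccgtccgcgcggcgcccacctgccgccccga
Esr1, chr10:4709908-4710157, plus strand: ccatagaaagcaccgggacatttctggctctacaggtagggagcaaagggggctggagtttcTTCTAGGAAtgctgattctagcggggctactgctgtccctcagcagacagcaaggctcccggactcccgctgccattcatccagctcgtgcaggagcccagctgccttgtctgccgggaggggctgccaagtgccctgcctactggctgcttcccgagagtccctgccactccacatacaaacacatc
These promoters were of different composition. The Wnt4 window was 85.2% G and C with 44 CpG dinucleotides, while the Calca, Tnfsf11 and Pgr windows were 48.0%, 60.4% and 43.6% G and C with 4 CpG each. The median over all 32851 promoters was 52.4% and 6 CpG. Of the members not printed, Tnfrsf11a had 31 CpG and Id2 18. The STAT5 site TTCNNNGAA was found in 1 of 8 member promoters, as TTCTAGGAA at position -188 from that Esr1 start, and in 7.02% of all promoters. The palindromic oestrogen response element and the palindromic progesterone or glucocorticoid response element were found in none of the 8, against 0.0639% and 0.0396% of all promoters. All 3 patterns read the same on both strands, and a match is a description of the letters alone.

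Esr1, the oestrogen receptor alpha gene, was highest before late pregnancy. In virgin glands without prolactin it was 14.01 FPKM in control and 11.7 in Ezh2 KO, and with prolactin 6.31 and 8.25. At p13 it was 18.1 in control, 8.96 in Ezh1 KO, 5.95 in Ezh2 KO and 9.09 in the Ezh1 het Ezh2 KO group. At p18 the same groups had 2.71, 2.13, 2.25 and 1.64 FPKM. All p18 groups thus lay below every other group, and the p13 control was the highest of the 12.

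Pgr, the progesterone receptor gene, was highest in the virgin control without prolactin, at 12.2 FPKM, against 3.25 in the virgin Ezh2 KO. With prolactin these were 7.04 and 5.09. At p13 Pgr was 2.48 FPKM in control, 3.35 in Ezh1 KO, 2.16 in Ezh2 KO and 1.87 in the Ezh1 het Ezh2 KO group, and at p18 it was 1.03, 0.994, 0.885 and 0.818. No pregnant group exceeded 3.35 FPKM, and the 4 groups at p18 were the 4 lowest.

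Tnfsf11, the gene of the RANK ligand, had the widest range of the members. It was 30.7 FPKM in the virgin control and 1.77 in the virgin Ezh2 KO without prolactin, and 71.0 and 15.4 with it. At p13 it was 17.4 in control, 19.5 in Ezh1 KO, 21.2 in Ezh2 KO and 13.7 in the Ezh1 het Ezh2 KO group. At p18 control had 1.93, Ezh1 KO 5.49, Ezh2 KO 6.61 and Ezh1 het Ezh2 KO 0.252 FPKM. The highest group was 282-fold above the lowest, a range reached by 0.792% of the genes that reached 1 FPKM in at least 1 group. In that share, the 431 genes listed at 0 in a group have no such ratio and were counted as not reaching it.

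Wnt4, the second progesterone-induced ligand, varied least, 3.56-fold from lowest to highest group. It was 12.1 FPKM in the virgin control and 4.76 in the virgin Ezh2 KO without prolactin, and 9.90 and 6.03 with it. At p13 the groups were close together, at 11.6 in control, 11.4 in Ezh1 KO, 12.6 in Ezh2 KO and 10.95 in the Ezh1 het Ezh2 KO group. At p18 control was the lowest of all groups at 3.54, and Ezh1 KO had 8.72, Ezh2 KO 7.78 and Ezh1 het Ezh2 KO 5.45.

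Calca was among the more abundant members outside the virgin Ezh2 KO glands. It was 66.8 FPKM in the virgin control and 2.81 in the virgin Ezh2 KO without prolactin, and 135 and 6.93 with it. At p13 it was 111 in control, 109 in Ezh1 KO, 160.4 in Ezh2 KO and 141 in the Ezh1 het Ezh2 KO group. At p18 control had 11.9, Ezh1 KO 61.5, Ezh2 KO 102 and Ezh1 het Ezh2 KO 54.2 FPKM. The p18 control was therefore closer to the virgin Ezh2 KO groups than to any other pregnant group. Calcb, the paralogue that shares sequence with Calca, stayed below 1 FPKM in every group, and the sum of 10 markers of thyroid C cells and sensory neurons was at most 2.35 FPKM.

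Tnfrsf11a and Id2 were lower in the virgin than in the pregnant groups. Tnfrsf11a, the gene of RANK, was 0.961 FPKM in the virgin control and 2.07 in the virgin Ezh2 KO without prolactin, and 1.53 and 3.22 with it. At p13 it was 4.96 in control, 5.92 in Ezh1 KO, 9.29 in Ezh2 KO and 6.45 in the Ezh1 het Ezh2 KO group, and at p18 it was 13.3, 10.1, 7.17 and 9.14. The virgin groups were the 4 lowest, and control was the lowest group at p13 and the highest at p18.

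Id2 was the most abundant member in all pregnant groups but the p13 control, Ezh1 KO and Ezh1 het Ezh2 KO, where Calca was higher. It was 29.8 FPKM in the virgin control and 44.9 in the virgin Ezh2 KO without prolactin, and 45.1 and 29.2 with it. At p13 it was 80.8 in control, 104 in Ezh1 KO, 176 in Ezh2 KO and 123 in the Ezh1 het Ezh2 KO group. At p18 it was 158, 108, 117 and 212 FPKM. As for Tnfrsf11a, p13 Ezh2 KO was above its control and p18 Ezh2 KO below it.

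**Figure D1:**
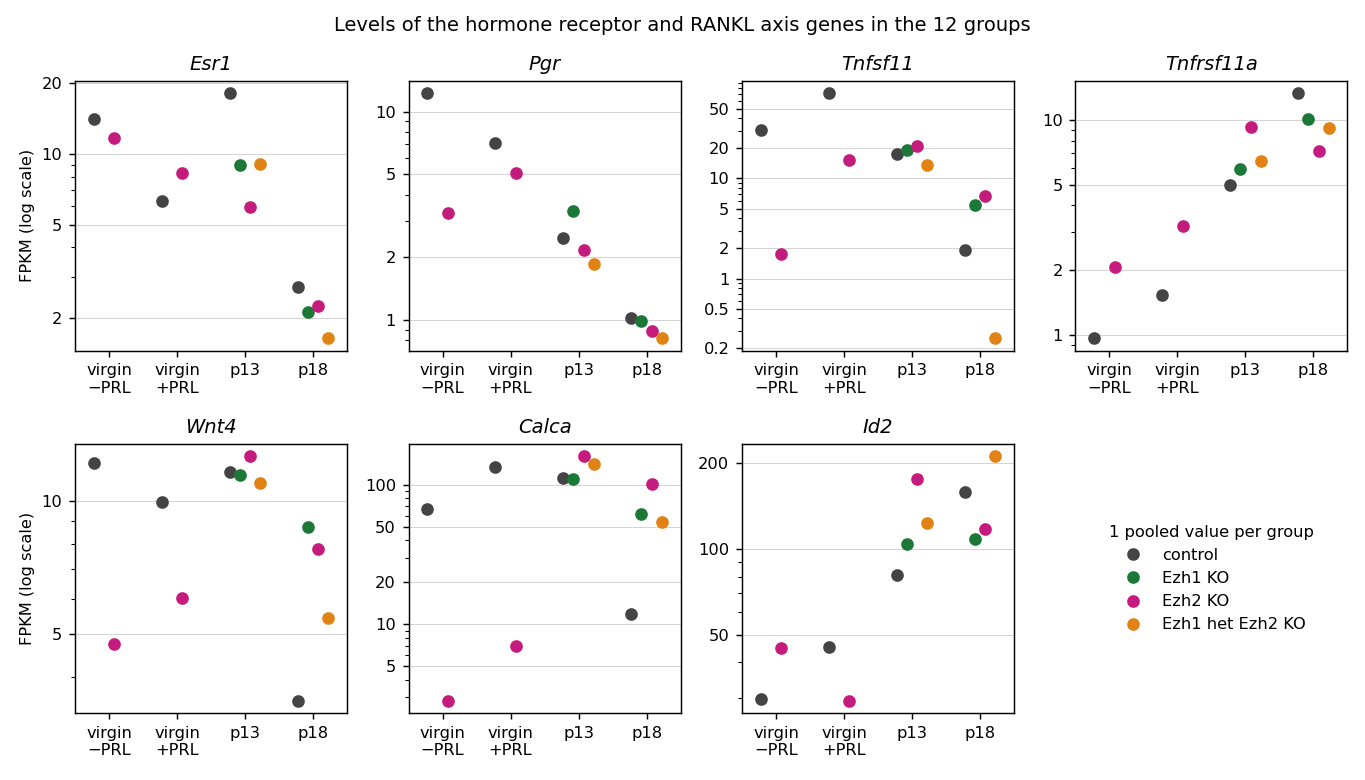
FPKM (log scale) of the 7 genes in the 12 groups, by stage on the horizontal axis (PRL, prolactin) and genotype by colour, with 1 pooled value per point and therefore no error bars. Pgr and Esr1 are lowest at p18, Tnfrsf11a and Id2 are lowest in virgins, and Calca and Tnfsf11 in untreated virgin Ezh2 KO lie at 2.81 and 1.77 FPKM against 66.8 and 30.7 in control.

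Differences between groups were taken as log2(FPKM + 1) of one group minus that of the other. The added 1 makes differences of genes with low values smaller than their folds, which are plain FPKM ratios. A difference of 1 log2 unit or more was counted as past the threshold. The same count over the 14273 genes that reached 1 FPKM in at least 1 group serves as the background. Several comparisons share a control group, so their values are given side by side and not as independent results.

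The first comparison set virgin Ezh2 KO glands against virgin control before prolactin, where Ezh2 itself was not lower (5.55 and 4.98 FPKM). Calca, Tnfsf11, Pgr and Wnt4 were lower in Ezh2 KO. Thus 4 of 7 members were past the threshold downward and 0 upward, against 0.911% of all genes downward and 3.35% upward. Calca was 23.8-fold lower (log2 difference -4.15) and Tnfsf11 17.3-fold lower (-3.51), the 15th and 19th lowest differences of all genes. Pgr was 3.77-fold lower (-1.64) and Wnt4 2.55-fold lower (-1.19). Esr1 (-0.24), Tnfrsf11a (0.65) and Id2 (0.58) were within the threshold.

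The luminal compartment differed in the same direction. All 12 luminal markers had lower values in the untreated Ezh2 KO glands, 3 of them past the threshold (median -0.78, against 0.00 over all genes), and their sum was 903 FPKM against 1716. The 9 hormone-sensing luminal markers were also all lower in value (median -0.57, or 0.26 after scaling to the luminal markers), with 2 past the threshold. These were Prlr, the prolactin receptor gene, at 29.8 against 70.4 FPKM, and the homeobox gene Msx2 at 4.53 against 11.4. Per 1000 FPKM of the luminal markers, Calca was 3.11 in Ezh2 KO and 38.9 in control, and Tnfsf11 1.96 and 17.9. On the same scale Pgr was 3.60 and 7.13 and Wnt4 5.28 and 7.08. With every group rescaled to a common sum of luminal markers the differences were -3.41 for Calca and -2.85 for Tnfsf11, while Pgr at -0.88 and Wnt4 at -0.39 were no longer past the threshold. That scaling placed Id2 at 1.49 and Tnfrsf11a at 1.32, past it upward, and put 23.7% of all genes past it (median 0.81).

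Lymphocyte markers also separated the virgin groups. Before prolactin all 14 had higher values in the Ezh2 KO glands (summing to 313 FPKM, control 24.0), and after it all 14 had lower ones (11.2, control 246), and none of the 14 was listed at 0 in any group. The labels' protocol states lymph node removal for the left, uninjected gland. Calca and Tnfsf11 were lower in Ezh2 KO both before and after prolactin. Id2 was 44.9 and 45.1 FPKM in the 2 groups with the high lymphocyte sums and 29.8 and 29.2 in the others, and Tcf7, a Wnt-responsive factor that T cells also express, was 24.3 and 15.6 against 1.47 and 1.07. The part of lymphocytes in the differences of any of these genes was not tested, and 1 pooled value per group cannot show it.

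After prolactin 2 of 7 members were past the threshold downward in the Ezh2 KO glands and 0 upward, against 2.71% and 0.764% of all genes. Calca was 19.4-fold lower (-4.10) and Tnfsf11 4.61-fold lower (-2.14). Pgr (-0.40), Wnt4 (-0.63), Esr1 (0.34), Tnfrsf11a (0.74) and Id2 (-0.61) were within the threshold. No hormone-sensing marker was past it (median -0.24), and none of the 8 oestrogen response genes kept was past it before or after prolactin (medians -0.18 and -0.10).

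**Figure D2:**
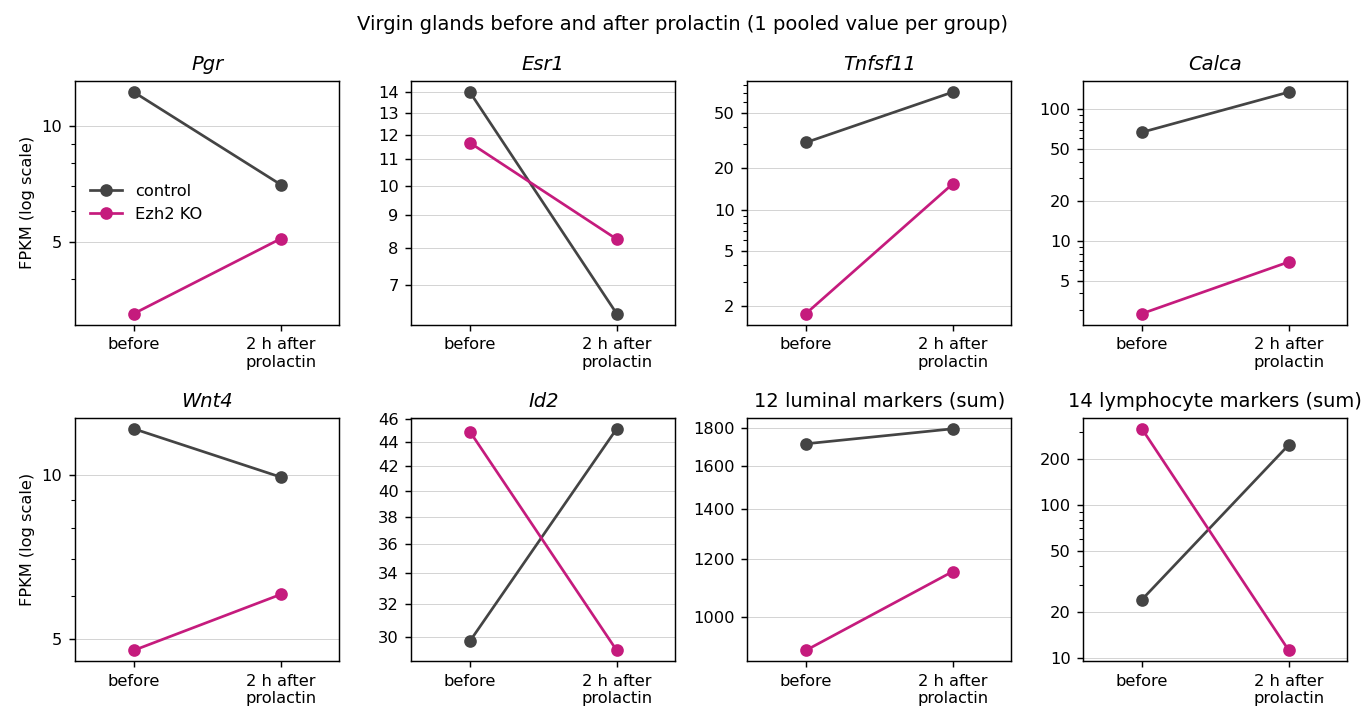
FPKM (log scale) of 6 members and summed FPKM of 2 marker lists in virgin control and Ezh2 KO glands before and 2 h after prolactin, with 1 pooled value per point. Lines join the groups of a genotype. Calca and Tnfsf11 are lower in Ezh2 KO at both times, while Id2 and the lymphocyte sum are higher in Ezh2 KO before prolactin and in control after it.

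The prolactin comparison asked what the injection did within each genotype. In control, 2 of 7 members were higher afterwards and 1 lower, against 4.76% and 1.72% of all genes. Tnfsf11 was 2.32-fold higher (log2 difference 1.18), Calca 2.02-fold higher (1.00) and Esr1 2.22-fold lower (-1.04). Calca lay at the threshold and had a range of 0.82 to 1.01 over 9 alternative scalings, filters and pseudocounts, and Esr1 was -0.75 with a pseudocount of 5.

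In Ezh2 KO, 2 of 7 were higher after prolactin and 0 lower, against 2.75% and 4.08% of all genes. Tnfsf11 was 8.68-fold higher (2.56), from a lower starting value, and ended at 15.4 FPKM, below the 30.7 of the uninjected control. Calca was 2.47-fold higher (1.06, and 0.61 to 1.27 over the alternatives). Pgr had opposite signs in the genotypes, at -0.72 in control and 0.52 in Ezh2 KO, as did Wnt4 (-0.27 and 0.29) and Id2 (0.59 and -0.60), none of them past the threshold. For Wnt4 the value in Ezh2 KO was -0.01 after scaling to the luminal markers. The difference between genotypes was not tested.

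Genes that receive or carry these signals were read beside the members. Of 13 RANK signalling genes, 2 were higher after prolactin in control and 1 in Ezh2 KO, and none was lower. Nfkbia, the NF-kappaB inhibitor that NF-kappaB itself induces, was 214 FPKM after prolactin and 77.8 before in control, and 198 and 75.3 in Ezh2 KO. Birc3, an NF-kappaB target, was 20.2 and 8.59 in control. The lymphocyte marker sum was also higher after the injection in control, and lower in Ezh2 KO. The part of RANKL, lymphocytes or surgery in these values was not tested. Among ID proteins and their E protein partners, Id1 was the 1 of 6 past the threshold in each genotype, at 116 FPKM after and 45.9 before in control and 114 and 36.2 in Ezh2 KO.

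From virgin to p13 in control, Pgr was 4.94-fold lower (-1.93), Tnfrsf11a 5.16-fold higher (1.60) and Id2 2.71-fold higher (1.41). These were 2 of 7 higher and 1 lower, against 9.12% and 2.76% of all genes, whose median was 0.17. Tnfsf11 (-0.78), Calca (0.73), Esr1 (0.35) and Wnt4 (-0.06) were within the threshold. Of the 9 hormone-sensing luminal markers 5 were lower and none higher (median -1.71), led by Prlr at 5.78 against 70.4 FPKM and the forkhead factor gene Foxa1 at 4.61 against 34.7. Nfkb2, a subunit of the pathway that RANK drives, was 22.3 against 9.29, the 1 of 13 RANK signalling genes past the threshold.

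In Ezh2 KO, Calca, Tnfsf11 and Wnt4, low in the virgin, were higher at p13 over the same interval, while Pgr was at -0.43. Of 7 members 5 were higher at p13 and 0 lower, against 11.0% and 9.11% of all genes. Calca was 57.1-fold higher (5.41), Tnfsf11 11.9-fold, Id2 3.93-fold (1.95), Tnfrsf11a 4.48-fold (1.74) and Wnt4 2.64-fold (1.24). Wnt4 was -0.10 after scaling to the luminal markers, which were 903 FPKM in the virgin and 2571 at p13. Scaled in that way Id2 was 0.46 and Tnfrsf11a 0.54, under the threshold, and Esr1 at -2.22 and Pgr at -1.55 were past it downward. The members past it were then 2 higher and 2 lower, with 62.0% of all genes past it (median -1.15).

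At p13 none of the ligand genes was past the threshold in any knockout group. In Ezh2 KO against control 1 of 7 members was higher and 1 lower, against 2.65% and 6.59% of all genes. Esr1 was 3.04-fold lower (-1.46) and Id2 2.18-fold higher (1.12). In Ezh1 KO 0 of 7 were past the threshold, against 2.1% of all genes upward and 2.28% downward. Ezh1 het Ezh2 KO likewise had 0 of 7, against 3.12% and 3.19%, and set against Ezh2 KO it again had 0 of 7, against 2.8% and 0.666%. Esr1 was -0.94 in Ezh1 KO and -0.92 in Ezh1 het Ezh2 KO relative to control, and -1.12 in Ezh1 KO after scaling to the luminal markers. Calca, Tnfsf11, Pgr and Wnt4 were within 0.53 log2 units of control in all 3 genotypes.

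The p13 control stood apart in tissue makeup beside these values. Its adipocyte marker sum was 31906 FPKM against 19996 in Ezh1 KO, 12519 in Ezh2 KO and 22548 in the Ezh1 het Ezh2 KO group, and its muscle marker sum was 10714 against 2636, 21.4 and 27.7. No adipocyte or muscle marker was listed at 0. Esr1 had the same order over the 4 groups as the adipocyte sum. The part of these tissues in the Esr1 difference was not tested. For Id2, the sum of the luminal markers was 2571 FPKM in Ezh2 KO and 1573 in control, and the difference was 0.41 after scaling to them.

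Other receptors and pathway genes at p13 gave few differences in Ezh2 KO. Of 6 other steroid and nuclear hormone receptors kept, Vdr, the vitamin D receptor gene, was higher at 30.3 against 11.6 FPKM. Of 13 Wnt ligands and response genes, Rspo1, which amplifies Wnt signals, was higher at 116 against 50.95 and 2 were lower, among them Wnt2 at 1.28 against 6.51. None of 13 RANK signalling genes was past the threshold (median 0.55, and -0.11 after scaling to the luminal markers), nor was any of 9 steroid receptor coregulators.

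At p18 Calca was higher than in control in all 3 knockout groups, while Tnfsf11 was higher in Ezh2 KO and Ezh1 KO and lower in Ezh1 het Ezh2 KO. In Ezh2 KO 2 of 7 members were higher than in control and 0 lower, against 2.38% and 2.14% of all genes. Calca was 8.54-fold higher (2.99) and Tnfsf11 3.42-fold higher (1.38, and 0.74 with a pseudocount of 5). Wnt4 was at 0.95, and Tnfrsf11a at -0.81. In Ezh1 KO 3 of 7 were higher and 0 lower, against 1.21% and 1.39% of all genes. Calca was 5.18-fold higher (2.28), Tnfsf11 2.84-fold (1.15) and Wnt4 2.47-fold (1.10). The last 2 were under the threshold in some alternatives, with lowest values of 0.60 and 0.68.

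Ezh1 het Ezh2 KO at p18 had high Calca without high Tnfsf11. Calca was 4.56-fold higher than in control (2.10) and Tnfsf11 7.68-fold lower (-1.23), so 1 of 7 was higher and 1 lower, against 1.23% and 1.55% of all genes. The Tnfsf11 value rests on 0.252 against 1.93 FPKM and was -0.40 with a pseudocount of 5. Against Ezh2 KO, Tnfsf11 was 26.3-fold lower (-2.60) and Calca was within the threshold (-0.89), with 0 of 7 members higher and 1 lower against 1.16% and 1.4% of all genes. All 3 comparisons share the p18 control, whose Calca and Wnt4 values were the lowest of the 8 pregnant groups. Luminal marker sums were close at this stage, from 1558 FPKM in control to 1800 in Ezh1 KO.

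Among related genes at p18, Areg, the oestrogen-induced EGF receptor ligand of the gland, was 7.83 FPKM in Ezh2 KO and 6.09 in Ezh1 KO against 2.11 in control. It was the 1 of 8 oestrogen response genes past the threshold in each comparison. Rspo1 was 61.9 and 52.6 against 15.4, and Id3 46.9 and 33.2 against 16.0, each the 1 gene of its list past it. Vdr was lower in Ezh2 KO, at 20.7 against 60.5 FPKM. Cited1, a coregulator found in hormone-sensing cells, was 14.4 against 6.40 in Ezh1 het Ezh2 KO, the 1 of 9 hormone-sensing markers past the threshold there.

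**Figure D3:**
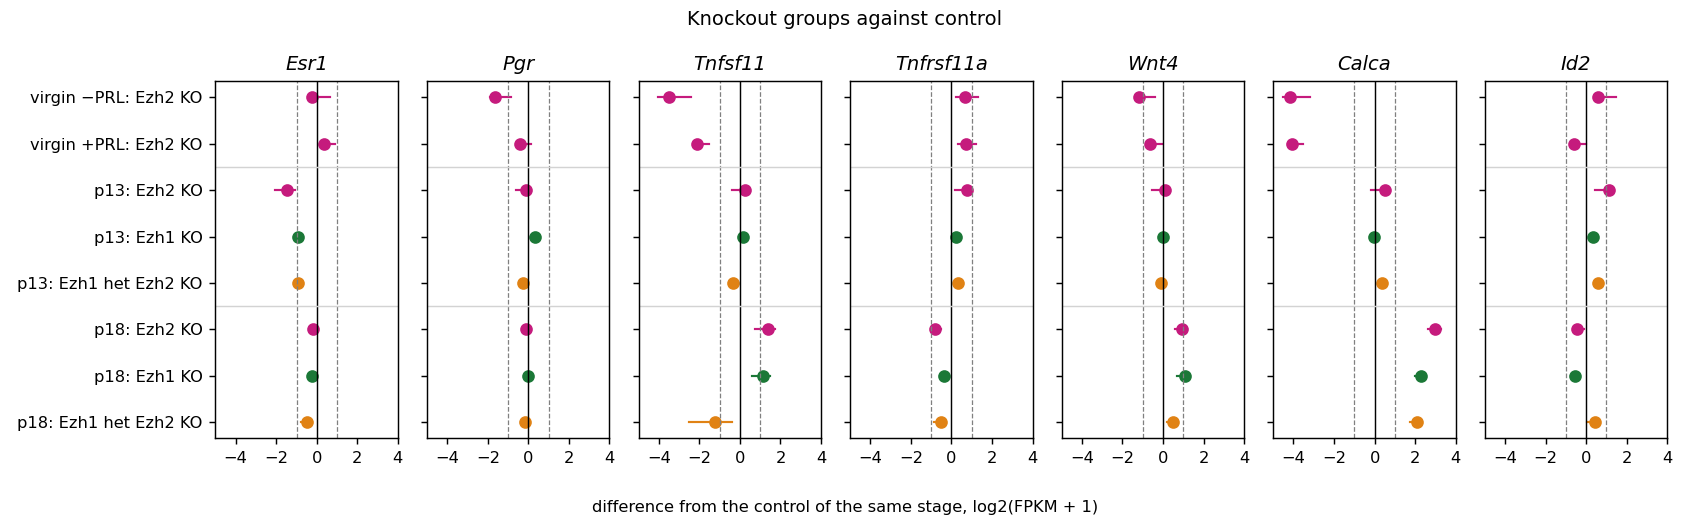
Difference of each knockout group from the control of its stage in log2(FPKM + 1), for 7 genes and 8 comparisons, with dots for the deposited values and lines for the range over 9 alternative scalings, filters and pseudocounts. Dashed lines mark 1 log2 unit. Calca lies at -4.15 and -4.10 in virgin Ezh2 KO and at 2.10 to 2.99 in the p18 knockout groups.

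Esr1 and Tnfsf11 were lower at p18 than at p13 in all 4 genotypes, by the least in Ezh2 KO. In control 4 of 7 members were lower and 1 higher, against 19.1% and 3.55% of all genes, whose median was -0.46. Calca was 9.35-fold lower (-3.12), Tnfsf11 9.02-fold (-2.65), Esr1 6.67-fold (-2.36) and Wnt4 3.28-fold (-1.47). Tnfrsf11a was 2.69-fold higher (1.26, and 0.77 with a common sum). With a common upper quartile, which brings the median of all genes to -0.04, Calca was at -2.63 and Wnt4 at -1.04. With a common sum that leaves out the milk protein genes the median was -0.17, with 2 members higher and 4 lower. Of all 14273 genes, 748 were higher and 1740 lower with that scaling.

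Calca and Wnt4 differed less over the same interval in the knockout groups. Calca was -0.82 in Ezh1 KO, -0.65 in Ezh2 KO and -1.37 in the Ezh1 het Ezh2 KO group, and Wnt4 was -0.35, -0.63 and -0.89. Tnfsf11 was lower in each, by 3.55-fold, 3.20-fold and 54.2-fold. Members past the threshold were 3 of 7 in Ezh1 KO, 2 in Ezh2 KO and 3 in the Ezh1 het Ezh2 KO group, all of them lower, against 12.1%, 4.1% and 16.0% of all genes. Upward, 1.56%, 1.1% and 1.66% of all genes were past it. In Ezh2 KO, Esr1 (-1.10) was past the threshold in 4 of 9 alternatives and as small as -0.58. These 9 include the changes of filter, which cannot alter a member's own value. Tnfsf11 (-1.54) was -0.96 with luminal scaling, which left 0 members past the threshold, against 2.75% of all genes. The difference from control over this interval was not tested.

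Markers of other cell types were also lower at p18 in control. All 13 adipocyte markers were past the threshold downward (sums of 5996 and 31906 FPKM), as were all 12 muscle markers (56.0 and 10714) and all 7 fibroblast markers (844 and 2497), and none was listed at 0. Of the 9 hormone-sensing luminal markers 3 were lower (median -0.82), against 1 of 12 luminal markers (median -0.07). The part of these cells in the Esr1 and oestrogen response values was not tested.

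Of 8 oestrogen response genes, 5 were lower at p18 in control and 1 higher (median -1.40). Areg went from 26.6 to 2.11 FPKM and Ccnd1, the cyclin D1 gene through which these hormones drive division, from 137 to 53.4. Of 6 ID and E protein genes 4 were lower, among them Id4 at 10.0 against 38.8, while Id2 was at 0.96. Of 13 RANK signalling genes only Rela was past the threshold, lower at 19.2 against 39.9.

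RANKL and RANK transcripts were then set against each other as a ratio of FPKM, which is per length. Tnfsf11 was 31.9 times Tnfrsf11a in the virgin control without prolactin and 46.3 times with it, and 0.854 and 4.77 times in the virgin Ezh2 KO. At p13 the ratio was 3.51 in control, 3.29 in Ezh1 KO, 2.28 in Ezh2 KO and 2.12 in the Ezh1 het Ezh2 KO group. At p18 it was 0.145, 0.544, 0.923 and 0.0275. Ligand exceeded receptor in all groups at p13 and in none at p18.

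**Figure D4:**
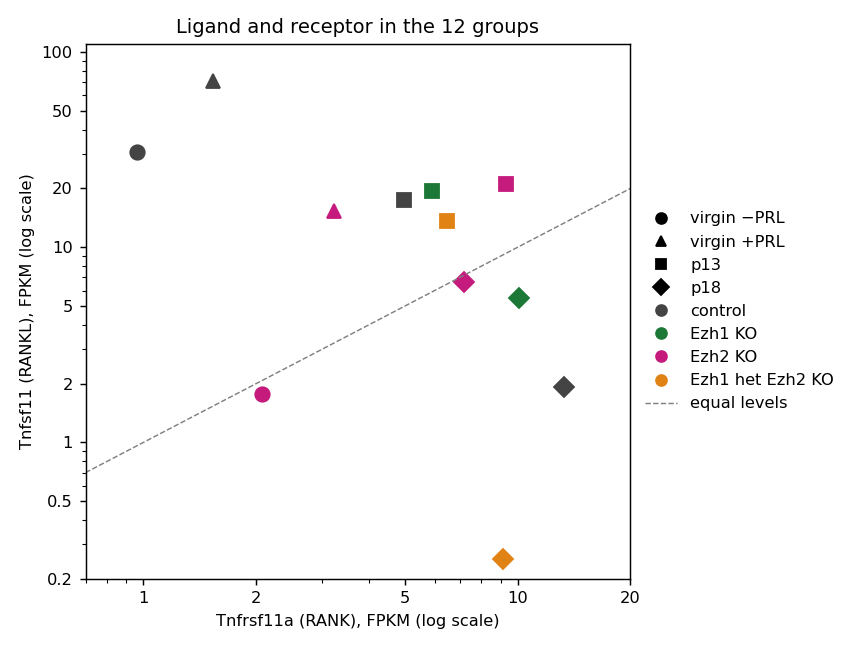
Tnfsf11 against Tnfrsf11a in FPKM (both axes log) for the 12 groups, with stage by symbol, genotype by colour, 1 pooled value per point, and a dashed line at equal levels. The p18 groups and the untreated virgin Ezh2 KO group lie under the line, and the control moves from 31.9 times the receptor in the virgin to 0.145 times at p18.

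The members were not all close to each other by a measure that takes in the size of a gene's differences as well as their order. Over the 12 groups, the root mean square difference of 2 genes' log2(FPKM + 1), each centred on its own mean, was lowest for Tnfrsf11a with Id2 (0.41) and next lowest for Esr1 with Pgr (0.69). Tnfsf11 and Calca differed by 1.64. A member's own spread around its mean ran from 0.51 for Wnt4 to 1.73 for Calca. A large value can therefore come from wide or unequal spread, and whether the order of groups was shared was not tested. Among the 11121 genes that reached 5 FPKM, those most like Esr1 were Tnxb (0.19), Kirrel, Ecm1, Ttyh2 and Antxr2, and those most like Pgr were Dpep2 (0.25), Cdk19, Slc44a4, Cd164 and Plk2. Rnf128 (0.23) and Ica1 were most like Tnfrsf11a, Mmp15 (0.23) and Cxadr most like Wnt4, and Ckmt1 (0.22) and Bdh1 most like Id2. The genes nearest to Tnfsf11 and Calca were further off, but these 2 members also had the widest spread. The nearest were Agtr1a at 0.90 and the entry Mir697 at 1.21, where the members' own spread around their means was 1.60 and 1.73. These likenesses are a description over groups that share stage and tissue makeup.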

How the data were processed

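Poly(A) RNA from whole mammary glands was sequenced in 31 libraries. The authors deposited FPKM for 22552 genes in 12 columns, 1 per group, with no replicate values. The submitters' processing notes name TopHat, Bowtie, BWA, Cufflinks, Cuffdiff, HOMER, FastQC, Trim Galore and CASAVA and build mm9, with no versions or roles. For the way libraries were pooled into 1 value, a method is not given in the sources consulted. The 9 chromatin immunoprecipitation samples were not analysed here.

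A limma fit was written down for the case of replicate columns. Single pooled values left nothing to fit, and log2(FPKM + 1) differences were computed for 18 comparisons over 14273 genes reaching 1 FPKM, with a threshold of 1. Read steps were sought among 1282 genes below 0.05 FPKM in the p13 control and Ezh2 KO columns. The most common ratio covered 1.79% of them, so reads could not be recovered. The members, the gene lists and the threshold were chosen with earlier results of these data known. All 7 members are named; genes of other lists are named where they are past the threshold and reach 5 FPKM in either group, at most 4 per list, and the 5 most alike genes per member were ranked by root mean square difference. Promoters came from RefSeq by symbol, with all 7 members matched. Rescaling, filters, pseudocounts and a threshold of 0.5 were the alternatives. Python 3.11.15, pandas 2.3.3 and NumPy 2.4.6 were used, and the code was tested on simulated data.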

Additional observations from a re-analysis of the deposited data

How the results depend on the processing

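No paired analysis was possible because the deposited columns carry 1 pooled value per group and no replicate numbers, and leaving out single libraries could not be run for the same reason. Of 126 member differences 42 were past the threshold, and 21 of these stayed past it under all 9 alternative pseudocounts, filters and scalings. The filters cannot alter a member's own value, so only the pseudocounts and scalings could move a difference. Wnt4 from virgin to p13 in Ezh2 KO, past the threshold at 1.24, changed sign to -0.10 after scaling to the luminal markers. Their sum was 903 FPKM in the untreated virgin and 2571 at p13. Of the 84 others 17 were past the threshold in at least 1 alternative. Of the counts of members past the threshold, p13 Ezh2 KO against control went from 2 to 1 after scaling to luminal markers and to 4 at a threshold of 0.5. The share of all genes past it went from 9.23% to 19.7% and 25.7%. For p13 Ezh1 KO the count of 0 became 1 with a pseudocount of 0.1, with luminal scaling and at 0.5, against 6.42%, 5.04% and 13.5% of all genes. For p13 Ezh1 het Ezh2 KO 0 became 2 at 0.5, against 19.0% of all genes. With a pseudocount of 5 the counts were 1 for p18 Ezh2 KO, Ezh1 KO and Ezh1 het Ezh2 KO (2, 3 and 2 as reported), 1 for prolactin in control (3) and in Ezh2 KO (2), and 3 for p13 to p18 in control (5). In that order, 2.41%, 1.37%, 1.28%, 2.98%, 3.01% and 11.6% of all genes were past the threshold with this pseudocount. A common sum and luminal scaling each gave 1 for p18 Ezh1 KO, against 2.31% and 3.26% of all genes. For prolactin in Ezh2 KO the count was 1 under each of the 5 scalings, which put 6.94% to 10.1% of all genes past the threshold. At a threshold of 0.5 the counts were 4 for p18 Ezh2 KO and 5 for virgin Ezh2 KO against control with prolactin. They were 5 and 4 for prolactin in control and Ezh2 KO, and 5 for virgin to p13 in control. In these comparisons 11.0% to 32.2% of all genes were past that lower threshold. Apart from the lower threshold and the added scale, the cause of these changes was not tested. Read depth is unknown, which limits low values such as Tnfsf11 in p18 Ezh1 het Ezh2 KO.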

Other observations

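Some genes next to the hormone receptors had large differences after the prolactin injection in both genotypes. Fkbp5, a chaperone of steroid receptors that glucocorticoids and progesterone induce, was 11.8 FPKM before and 158 after it in control glands and 11.2 and 158 in Ezh2 KO, the 1 of 9 coregulators and chaperones past the threshold in each. Adm, which encodes the calcitonin-family peptide adrenomedullin, was 54.0 FPKM after and 7.26 before in control, and 43.9 and 9.35 in Ezh2 KO. Xbp1, a transcription factor of the secretory pathway and an oestrogen response gene, was 338 after and 145 before in control, and 299 and 128 in Ezh2 KO. After the injection, control and Ezh2 KO were within 1 log2 unit of each other for each of these 3 genes, and not for Calca and Tnfsf11. The injected gland was also collected later and after surgery, and these cannot be told apart from the hormone.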
